A study of Mus musculus with 12 samples.

Results

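Genes for the proteins and lipids of central myelin were examined in primary mouse oligodendrocytes (OLs) after interference with Egr2. The 9 genes were Mbp, Mobp, Cnp, Mag, Mog, Opalin, Cldn11, Mal and Ugt8a, taken by symbol from a table of read counts for 56860 named genes, and all 9 passed the filter on low counts that left 16600 genes for testing. The data comprised 12 RNA-seq libraries from C57BL/6J mice, 6 from OLs given siEgr2 and 6 from OLs given a control sequence (siNC, called NC in the labels), each collected at 48 h. The labels name the medial prefrontal cortex as tissue, whereas the study's methods describe O4-selected cells from the cortex of neonatal pups that were expanded with PDGF-AA and then differentiated with insulin, T3 and CNTF. The labels call the reagent siEgr2, and the study's methods speak of a plasmid as well as of siRNA. Nothing in the labels says that the libraries of a group came from separate cultures or animals, so p-values measure the spread between these libraries, which may be technical.

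Myelin is built by OLs as a spiral of membrane around axons. Compact myelin forms where MBP and MOBP hold the cytoplasmic faces together, whereas CNP keeps cytoplasmic channels open. MAG sits on the membrane next to the axon, MOG on the outermost lamella, and claudin 11 seals the spiral with tight junctions. UGT8 makes galactosylceramide, a main myelin lipid, and MAL is a membrane protein of lipid-rich domains. OL lineage factors such as OLIG1, OLIG2 and SOX10, and the later factor MYRF, switch these genes on, and EGR2 is best known as the factor that drives myelin genes in Schwann cells.

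The comparison of siEgr2 with siNC asked whether myelin genes differ after interference with Egr2, whose own fall had an edgeR adjusted p of 0.0981. All 9 genes had a fitted log2 fold change below 0, with a median of -0.13, where 49.1% of all tested genes lay below 0 and the median of all was 0.0046. Mbp and Opalin fell past the adjusted p of 0.05 (quasi-likelihood test of edgeR, Benjamini-Hochberg adjusted over all tested genes), by 0.28 and 0.26 on the log2 scale, which corresponds to 17.5% and 16.3% lower means. The other 7 genes did not pass, although 5 of the 9 had an unadjusted p under 0.05, all lower. The share of all tested genes at that unadjusted p was not counted, so such counts, here and for the lists below, have no background. A gene was called only if it also changed by more than 0.5 on the log2 scale, and 0 of the 9 genes were called, by edgeR and likewise by DESeq2, whereas 7.72% of all tested genes were, 2.63% higher and 5.08% lower. With the adjusted p alone, 2 of the 9 genes passed, both lower, beside 11.3% of all tested genes lower and 8.57% higher. The 95% interval of each of the 9 fold changes lay within 0.5 of 0 on the log2 scale, so under this scaling no interval reached the size used for a call.

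The sequences before the starts of 8 of the 9 genes were taken from the RefSeq promoter table of GRCm38.p6. They were searched on both strands over 250 bases for 5 short motifs. No promoter of Mbp was used, so its motifs were not tested. For EGR factors, neither GCGTGGGCG, present in 0.536% of 32851 promoters, nor GCGTGGGNG, present in 1.65%, was found in any of the 8 genes. The SOX core ACAAAG, present in 16.5% of promoters, occurred in Mobp, Opalin, Cnp and Mag. The MYRF forms CTGGCAC and CTGGTAC, present in 4.19% and 1.83% of promoters, occurred in Cnp and Mag and in Mog, respectively. The first promoter of each of the 5 genes with a match is shown because SOX and MYRF motifs could be read there directly. Each match on either strand is in capitals (CTTTGT is the SOX core on the other strand). The stretches run from 250 to 51 bases before the RefSeq start, 5′ to 3′ on the gene's strand, at chr9:120149492-120149691 (+) for Mobp, chr19:41077164-41077363 (-) for Opalin, chr11:100574689-100574888 (+) for Cnp, chr7:30914914-30915113 (-) for the first of 3 Mag starts and chr17:37023449-37023648 (-) for Mog.
Mobp: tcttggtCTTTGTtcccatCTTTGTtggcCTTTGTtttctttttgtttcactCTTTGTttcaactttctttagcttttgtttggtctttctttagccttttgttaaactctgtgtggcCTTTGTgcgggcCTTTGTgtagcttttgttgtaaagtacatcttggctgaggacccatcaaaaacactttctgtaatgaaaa
Opalin: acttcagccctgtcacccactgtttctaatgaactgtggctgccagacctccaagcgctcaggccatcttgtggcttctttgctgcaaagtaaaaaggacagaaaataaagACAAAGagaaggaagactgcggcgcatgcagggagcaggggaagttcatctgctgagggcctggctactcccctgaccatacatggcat
Cnp: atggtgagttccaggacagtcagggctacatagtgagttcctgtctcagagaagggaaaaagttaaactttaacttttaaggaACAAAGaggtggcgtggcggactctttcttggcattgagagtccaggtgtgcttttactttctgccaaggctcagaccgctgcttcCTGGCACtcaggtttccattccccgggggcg
Mag: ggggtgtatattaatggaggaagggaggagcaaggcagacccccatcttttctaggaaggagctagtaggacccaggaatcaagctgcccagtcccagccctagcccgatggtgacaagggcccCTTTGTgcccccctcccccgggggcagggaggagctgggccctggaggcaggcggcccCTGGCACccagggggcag
Mog: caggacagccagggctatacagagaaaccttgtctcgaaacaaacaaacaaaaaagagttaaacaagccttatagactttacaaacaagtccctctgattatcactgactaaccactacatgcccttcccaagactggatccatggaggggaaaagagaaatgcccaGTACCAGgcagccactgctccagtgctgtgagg

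Mobp held 6 copies of the SOX core, between 243 and 120 bases before its start, and was the only one of the 32851 promoters with 6 or more, a limit set after its count was seen. Opalin, Cnp and the first Mag promoter held 1 copy each. The MYRF match lay 81 bases before the start in Cnp, 68 in Mag and 83 in Mog. The second Mag promoter, not shown, overlaps the first and also held the SOX core and the MYRF match, 67 and 9 bases before its start. A match describes the sequence only, and none was tested for binding.

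The siNC libraries held 28682946 to 39383014 counts and the siEgr2 libraries 8034251 to 16683677, without overlap. The 18S ribosomal gene Rn18s-rs5 took 0.142% to 1.05% of counts in siNC and 10.5% to 16.5% in siEgr2. The targeted gene, Egr2, was at 3.89, 5.19 and 7.06 CPM (a count as a share of the library total, scaled by TMM so that libraries can be compared) for the lowest, median and highest siNC library and at 2.22, 3.93 and 4.86 in siEgr2. Its groups overlapped, and its log2 fold change of -0.51 (SE 0.21) had an edgeR adjusted p of 0.0981 and p = 0.0433 in the exact permutation test for this single gene, at 30 to 65 counts per siEgr2 library. As to the cells, OL genes were abundant (Mbp averaged 1830 CPM in siNC), but the astrocyte gene Gfap averaged 4777 CPM, and 4 microglial markers (Aif1, Itgam, Fcrls and Siglech) had no count. The labelled cell type was thus present in a culture with high astrocyte marker levels.

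Among the proteins of compact myelin, Mbp was measured at 1613, 1834 and 2009 CPM in the lowest, median and highest siNC library. In siEgr2 it was at 1445, 1494 and 1584 CPM. Every siEgr2 library thus lay below every siNC library, with 11710 or more counts behind each value. The means were 1830 ± 134 CPM (SD, n = 6) and 1510 ± 53.0 CPM (SD, n = 6), and the log2 fold change was -0.28 (SE 0.043, 95% interval -0.37 to -0.19), with an edgeR adjusted p of 0.000228. The exact permutation test over 924 assignments, two-sided, gave p = 0.00216, the smallest it can give. Mbp lies on the plus strand of chromosome 18, from 82475146 to 82585637 (GENCODE M21, GRCm38), and overlaps the pseudogene Rpl21-ps8 on the other strand.

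Mobp, the second protein of the cytoplasmic faces, was at 200.6, 238 and 269 CPM in siNC and at 167, 208 and 229 CPM in siEgr2. The groups overlapped, and 2 siEgr2 libraries lay clearly below the others. Its log2 fold change of -0.24 (SE 0.083, 95% interval -0.42 to -0.065) was close to that of Mbp in size but had an edgeR adjusted p of 0.0552, and the exact permutation test gave p = 0.0238. The gene lies at chromosome 9, 120149707 to 120181484, plus strand, and overlaps Gm38642 on the same strand.

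Cnp, the cyclic nucleotide phosphodiesterase of non-compact myelin, was at 1494, 1645 and 1766 CPM in siNC and at 1473, 1512 and 1586 CPM in siEgr2. The siEgr2 libraries all lay within or just under the siNC range. The log2 fold change was -0.10 (SE 0.037, 95% interval -0.18 to -0.025), with an edgeR adjusted p of 0.0597 and p = 0.0260 in the exact permutation test. Cnp spans chromosome 11, 100574904 to 100591729, plus strand, and overlaps Dnajc7 on the other strand.

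Opalin, a membrane glycoprotein of OLs, was at 57.5, 62.4 and 65.5 CPM in siNC and at 46.7, 50.3 and 57.7 CPM in siEgr2. Only the edges of the groups met, with the highest siEgr2 library at 57.708 CPM and the lowest siNC library at 57.535 CPM. The log2 fold change was -0.26 (SE 0.061, 95% interval -0.39 to -0.13), with an edgeR adjusted p of 0.00664 and p = 0.00433 in the exact permutation test. Opalin lies at chromosome 19, 41061710 to 41077113, minus strand.

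Mog, the immunoglobulin-like protein of the outermost lamella, was at 28.6, 30.5 and 32.3 CPM in siNC and at 22.2, 28.0 and 28.4 CPM in siEgr2. The groups did not overlap, but the gap between 28.367 and 28.565 CPM was narrow, and it closed under another scaling (RLE), after thinning the libraries to equal totals and without structural RNA genes. The log2 fold change was -0.21 (SE 0.076, 95% interval -0.37 to -0.052), with an edgeR adjusted p of 0.0602 at 220 to 422 counts per siEgr2 library. Mog spans chromosome 17, 37010743 to 37023398, minus strand, and overlaps Gm22388 on the other strand. In all, Mbp and Mog were the 2 of 9 genes whose groups did not overlap, both lower, beside 7% of all tested genes.

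Mag, the adhesion molecule that faces the axon, was at 439.0, 479 and 504 CPM in siNC and at 416, 464 and 504 CPM in siEgr2, and the ranges nearly coincided. Its log2 fold change was -0.040 (SE 0.045, 95% interval -0.14 to 0.056; adjusted p = 0.591 in edgeR's test). Mag lies at chromosome 7, 30899176 to 30914873, minus strand.

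Cldn11, the tight junction protein, was at 859, 976 and 1104 CPM in siNC and at 940.1, 976 and 1038 CPM in siEgr2, so the medians were alike and the siEgr2 libraries lay inside the siNC range. Its log2 fold change of -0.0092 (SE 0.057) was the smallest of the 9 in size, with a 95% interval of -0.13 to 0.11, and its sign turned when single libraries were left out. Cldn11 lies at chromosome 3, 31149920 to 31164324, plus strand.

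Ugt8a, which catalyses the last step of galactosylceramide synthesis, was at 430.4, 505 and 569 CPM in siNC and at 412.0, 457 and 508 CPM in siEgr2. The groups overlapped widely, with a log2 fold change of -0.096 (SE 0.067, 95% interval -0.24 to 0.049). Mal was the lowest of the 9 genes per length, at 23.8, 26.9 and 30.4 CPM in siNC and 21.5, 25.8 and 28.2 CPM in siEgr2, with a log2 fold change of -0.13 (SE 0.088, 95% interval -0.31 to 0.059) at as few as 204 counts in a library. The adjusted p in edgeR's test was 0.362 for Ugt8a and 0.349 for Mal. Ugt8a spans chromosome 3, 125865271 to 125938619, and Mal chromosome 2, 127633226 to 127656695, both on the minus strand.

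**Figure D1:**
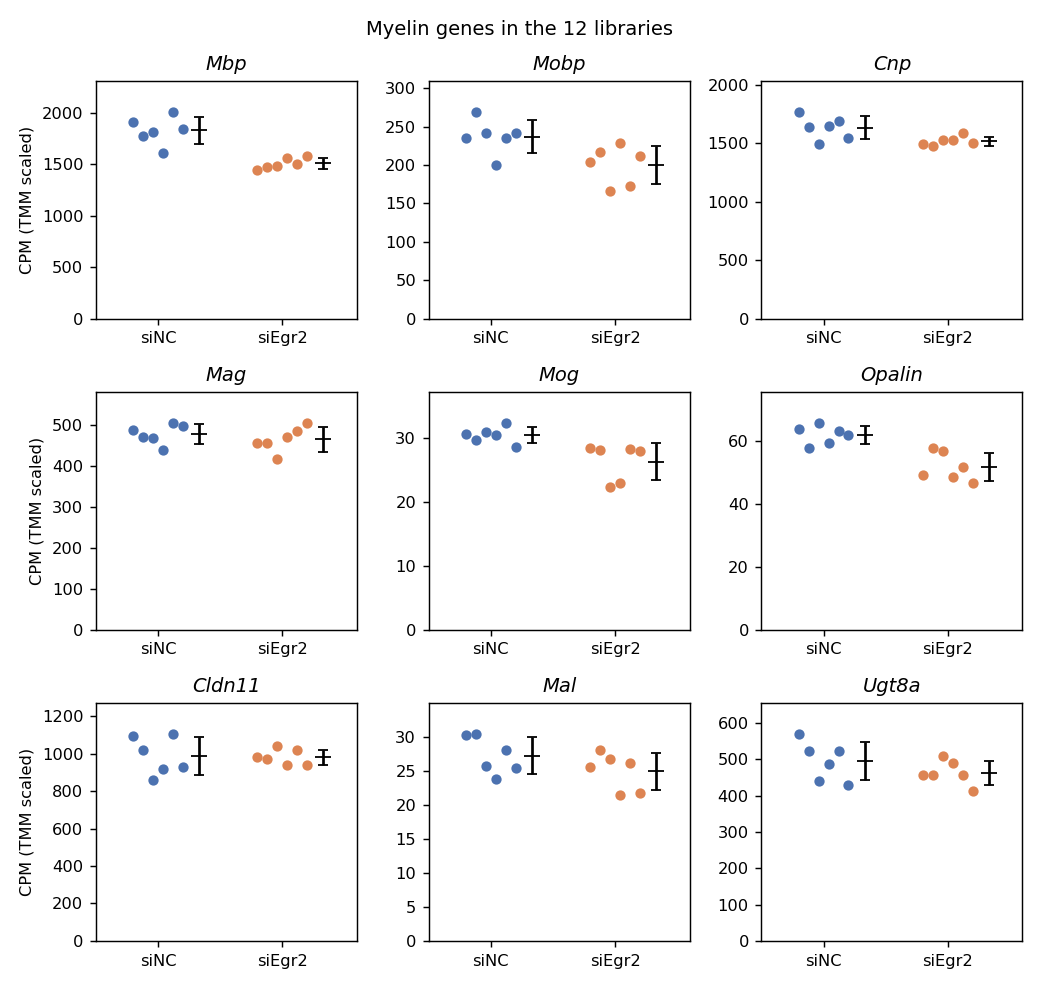
CPM (TMM scaled) of each of the 9 myelin genes in the 6 siNC and 6 siEgr2 libraries (points), with the mean and SD of each group (bars). The siEgr2 points of Mbp lie below all siNC points, from 1445 to 1584 against 1613 to 2009 CPM, whereas those of Cldn11 lie inside the siNC range.

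**Figure D2:**
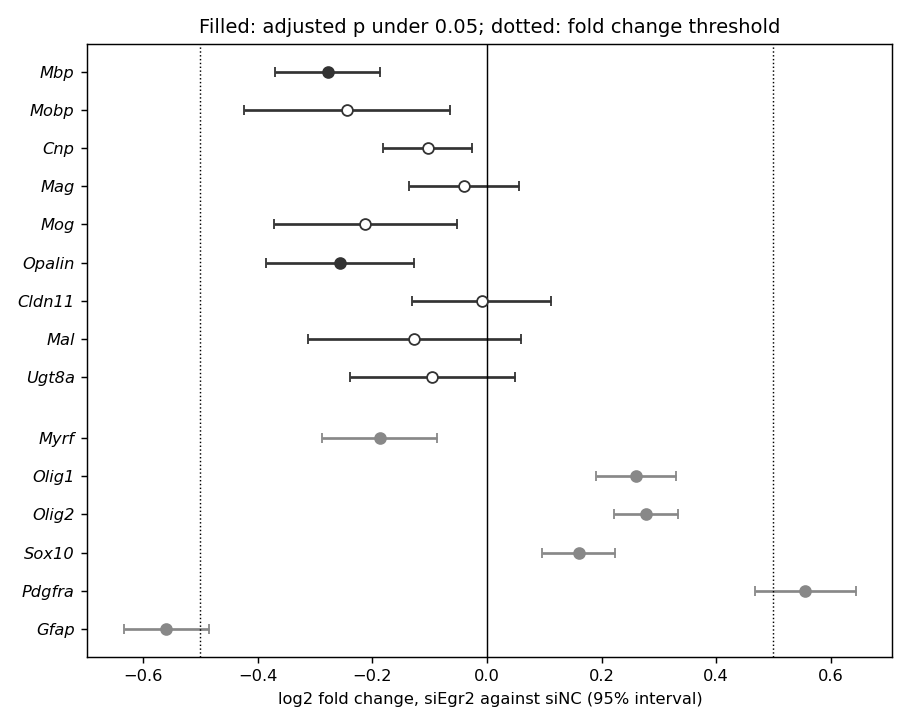
Fitted log2 fold change of siEgr2 against siNC with its 95% interval for the 9 myelin genes (black) and 6 other genes (gray), where filled symbols passed an adjusted p of 0.05 and dotted lines mark 0.5. The intervals of all 9 myelin genes stay between the dotted lines, with Mbp and Opalin filled at -0.28 and -0.26.

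The cultures could hold other cell types and stages, and in bulk RNA fewer cells of a type and less RNA per cell cannot be told apart. Of 15 astrocyte markers, 11 passed the adjusted p as lower and 8 of these were called, beside 11.3% and 5.08% of all tested genes. Among the 8 were Slc1a3 (994.5 to 553 CPM, log2 fold change -0.85), Aqp4 (946 to 544 CPM) and the sparsely counted Agt (4.58 to 2.32 CPM), which had the largest fall of the list (-1.01). Gfap, the astrocyte filament protein, fell by 0.56 on the log2 scale. The summed level of the list was 10875 to 11643 CPM in siNC and 7130 to 7895 CPM in siEgr2. The part of this shift, and of the ribosomal share above, in the lower values of Mbp and Opalin was not tested. The summed level of the 9 myelin genes was 5424 to 6186 CPM in siNC and 5140 to 5324 CPM in siEgr2. As a share of counts outside structural RNA, a measure that takes no scaling factor, the 9 genes made up 0.582% to 0.663% in siNC and 0.557% to 0.581% in siEgr2, a narrow separation. Of 14 microglial markers, 5 were tested and 0 called by edgeR or DESeq2, with 0 at an unadjusted p under 0.05 and a sum of 27.9 to 35.3 CPM in siNC against 23.5 to 34.8 in siEgr2. The neuronal list had 1 called gene each way of 9 tested (Elavl4 higher, Stmn2 lower), the endothelial list 1 lower of 3 (Flt1), and the fibroblast and pericyte list 3 lower of 7 (Pdgfrb, Rgs5 and Vtn). Their summed levels overlapped between the groups, at 423 to 681 CPM in siNC and 422 to 655 in siEgr2 for neurons, 5.56 to 8.43 and 2.47 to 8.15 for endothelium, where Cldn5 had no count, and 609 to 1028 and 605 to 756 for fibroblasts and pericytes.

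The OL lineage factors Olig1, Olig2 and Sox10 were higher in siEgr2. Olig1 averaged 1214 CPM in siNC and 1454 in siEgr2 (log2 fold change 0.26, SE 0.033, adjusted p = 3.41e-05 in edgeR's test), Olig2 635 and 770.0 CPM (0.28, SE 0.026, adjusted p = 1.88e-06), and Sox10 605 and 676 CPM (0.16, SE 0.030, adjusted p = 0.00114). All 3 factors were higher in every siEgr2 library than in any siNC library. Among 12 tested precursor genes, 8 passed the adjusted p as higher and 3 were called higher, beside 8.57% and 2.63% of all tested genes. These 3 were Pcdh15 (0.70 on the log2 scale), Cspg4 (0.56), the proteoglycan NG2, and Pdgfra (0.56, 522 to 767 CPM), the receptor through which PDGF maintains precursors. The matrix gene Matn4 was called lower (-0.65), and the summed level of the list was 3553 to 3958 CPM in siNC and 4438 to 4683 in siEgr2. Genes of premyelinating OLs had 0 of 14 called by edgeR or DESeq2, with 3 lower and 2 higher at an unadjusted p under 0.05 and Enpp6 (-0.22) and Cnksr3 (-0.15) lower at the adjusted p.

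Levels were therefore also expressed relative to the lineage factors, as the log2 ratio of each gene to the mean of Olig1, Olig2 and Sox10 in the same library, which does not depend on the scaling of libraries. The ratio of Mbp was 1.03 to 1.39 in siNC and 0.67 to 0.76 in siEgr2, a difference of -0.51, or 29.6% less Mbp per unit of the 3 factors. The differences were -0.49 for Opalin, -0.48 for Mobp, -0.44 for Mog, -0.33 for Cnp and -0.27 for Mag, all without overlap of the groups. Mal (-0.36), Ugt8a (-0.32) and Cldn11 (-0.24) overlapped. Thus 6 of the 9 genes were lower without overlap, beside 24.1% of all tested genes, and the median difference over all tested genes was -0.24, since the 3 factors themselves rose. Cldn11 equalled that median. With Sox10 alone as the base, 4 of the 9 genes (Mbp, Mog, Cnp and Opalin) were lower without overlap, beside 15.9% of all tested genes, and the median over all genes was -0.16. The ratio shows unequal change only and does not tell which of the 2 quantities moved.

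**Figure D3:**
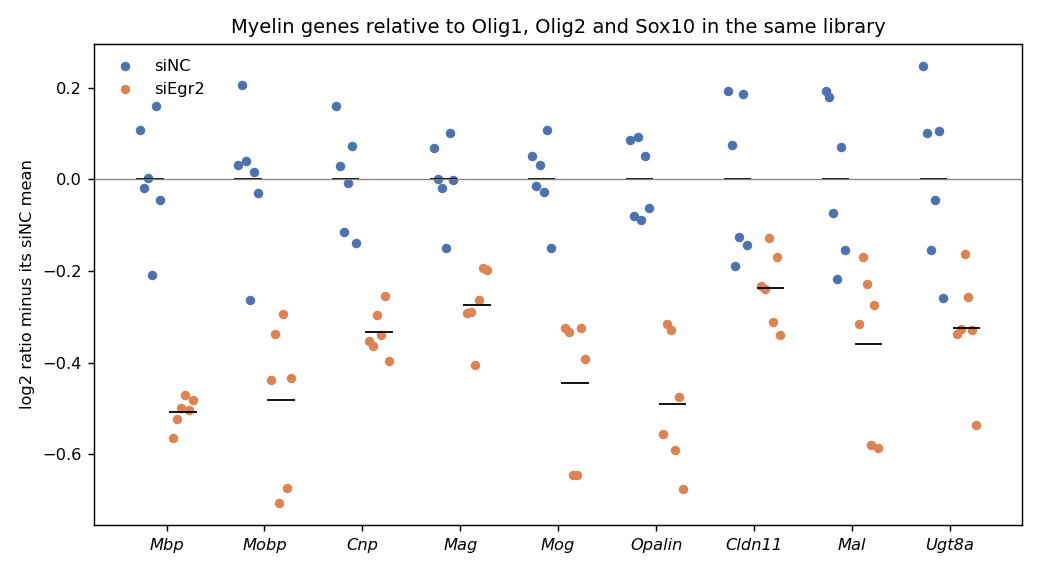
Log2 ratio of each myelin gene to the mean of Olig1, Olig2 and Sox10 in the same library, minus the siNC mean of that gene, for 6 siNC and 6 siEgr2 libraries (points) with group means (lines). The siEgr2 points of Mbp cluster near -0.51, whereas those of Cldn11, Mal and Ugt8a reach into the siNC range.

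Levels of different genes were compared per length, as CPM per kb of summed exons. In siNC, Cldn11 was highest at 528 ± 53.5 CPM per kb (SD, n = 6), followed by Cnp at 448 ± 27.0 and Mbp at 216 ± 15.8. Mag (117 ± 5.82) and Ugt8a (109 ± 11.7) came next and overlapped in both groups. Mobp (34.6 ± 3.20), Opalin (21.0 ± 1.01), Mog (17.8 ± 0.728) and Mal (9.82 ± 0.986) closed the order. Cldn11 and Cnp overlapped in siNC but not in siEgr2, and Opalin and Mog overlapped in siEgr2 but not in siNC. The rank order of the 9 genes was the same in siEgr2. With the longest transcript as the length, Cnp (561) came before Cldn11 (528) and the other 7 genes kept their ranks.

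After removal of the group means, Pearson's r over 12 libraries ranged from -0.38 (Mag and Opalin) to 0.81 (Cnp and Cldn11) over 36 pairs, with a median of 0.11, and 25 pairs were above 0. The next highest values were those of Cnp and Ugt8a (0.78), Cldn11 and Ugt8a (0.77), Mbp and Mag (0.71) and Mal and Cldn11 (0.68), and Mal had r = 0.53 with both Ugt8a and Opalin. Mbp and Opalin, the genes that passed the adjusted p, had r = 0.046. These values share library depth and scaling and are descriptive. Beyond the 9 genes, the 6 genes of 12391 candidates nearest to their mean deviation were En2 (r = 0.92), Cald1 (0.91), Pdp1 (0.90), Gm13341 (0.89), Tspan14 (0.89) and Ptn (0.88). Of these, Cald1 (log2 fold change -0.24) and Pdp1 (-0.29) were lower in siEgr2 at the adjusted p in edgeR's test. The 6 were picked as the highest of 12391 values over 12 libraries, and how high r reaches by such selection alone was not tested. The mean deviation itself had r = -0.27 with depth, -0.29 with the Rn18s-rs5 share and 0.44 with the astrocyte markers over the same 12 libraries.

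**Figure D4:**
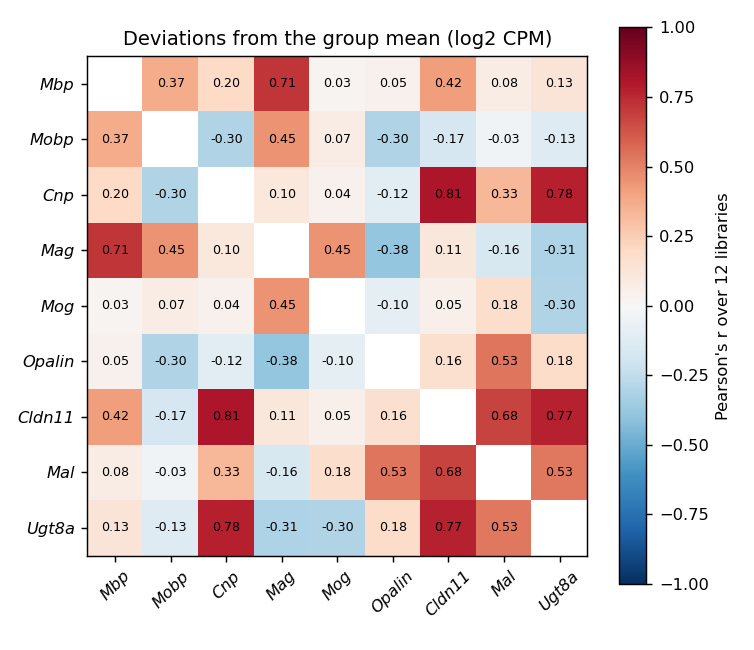
Pearson's r between the log2 CPM deviations of the 9 myelin genes from their group means over 12 libraries, on a scale from -1 to 1. Cnp, Cldn11 and Ugt8a correlate at 0.77 to 0.81 and Mbp with Mag at 0.71, while the median of the 36 pairs is 0.11.

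Other genes of the myelin sheath showed changes in both directions. Of 37 tested myelin genes outside the 9, 7 passed the adjusted p as lower and 2 as higher, beside 11.3% and 8.57% of all tested genes. Their median log2 fold change was -0.019. Cdc42ep1, an effector of CDC42, was the 1 gene of this list called by edgeR (46.0 to 30.0 CPM, log2 fold change -0.62), where DESeq2 called 2. Over all tested genes, edgeR called 7.72%. Lower at the adjusted p were also Cryab (-0.48), a small heat shock protein, the iron carrier Trf (-0.42), carbonic anhydrase Car2 (-0.41), Tmem98 (-0.36), Tmem63a (-0.32) and the protease Adamts4 (-0.19). The deacetylase Sirt2 (652 to 843 CPM, 0.37) and the septin partner Anln (0.23) were higher.

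The lipid pathway around Ugt8a was lower in fitted value throughout. All 17 tested galactolipid and sphingolipid genes had a log2 fold change below 0 (median -0.15), beside 49.1% of all tested genes. Of the 17, 0 were called by edgeR or DESeq2, and 12 were lower at an unadjusted p under 0.05, a measure not counted over all genes. At the adjusted p, 7 passed as lower, beside 11.3% of all tested genes. These 7 were the sphingomyelin synthase Sgms1 (-0.36), Psap (-0.30, 922 to 749 CPM), which encodes the saposins that aid sphingolipid breakdown, the fatty acid hydroxylase Fa2h (-0.26), the arylsulfatase Arsa (-0.25), and Elovl1 (-0.20), Cers2 (-0.18) and Hacd3 (-0.15), which make very long chain fatty acids or ceramide. The list thus held genes of synthesis and of breakdown alike. Of 17 genes of axon contact and the membrane skeleton, 6 passed as lower and 3 as higher, beside 11.3% and 8.57% of all tested genes. The laminin receptor subunit Itga6 was called lower (107 to 60.3 CPM, -0.82), Ank2 was lower (-0.36), and Cntn1 was higher (0.35).

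Of 24 OL regulators, 8 passed the adjusted p as higher and 3 as lower, beside 8.57% and 11.3% of all tested genes. Myrf, the factor that turns on myelin genes in differentiating OLs, was lower (579 to 509 CPM, log2 fold change -0.19, adjusted p = 0.00978 in edgeR's test), and Hes1 (-0.75) and Id4 (-0.57), which hold back differentiation, were called lower. Among 8 genes of myelin mRNA transport and its granules, the RNA-binding protein Hnrnpa2b1 (0.15) was higher and Tppp (-0.10) lower. Of 6 tested genes of peripheral myelin, the program that EGR2 drives in Schwann cells, Pmp22 (163 to 116 CPM, -0.49) passed as lower, and Ncmap was too low to be tested.

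The choice of scaling set the size of the differences. Without TMM, on library size alone, the median of all tested genes was shifted to -0.18 on the log2 scale, and all 9 myelin genes passed the adjusted p, from -0.46 for Mbp to -0.19 for Cldn11, beside 32.6% of all tested genes lower. The groups of 5 of the 9 did not overlap under this scaling, beside 18.8% of all tested genes. Relative to that median, Mbp was at -0.28, Opalin at -0.26 and Cldn11 at -0.013, as under TMM. Over 20 alternatives, Mbp (-0.46 to -0.25) and Opalin (-0.44 to -0.23) passed the adjusted p in all 20.

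**Figure D5:**
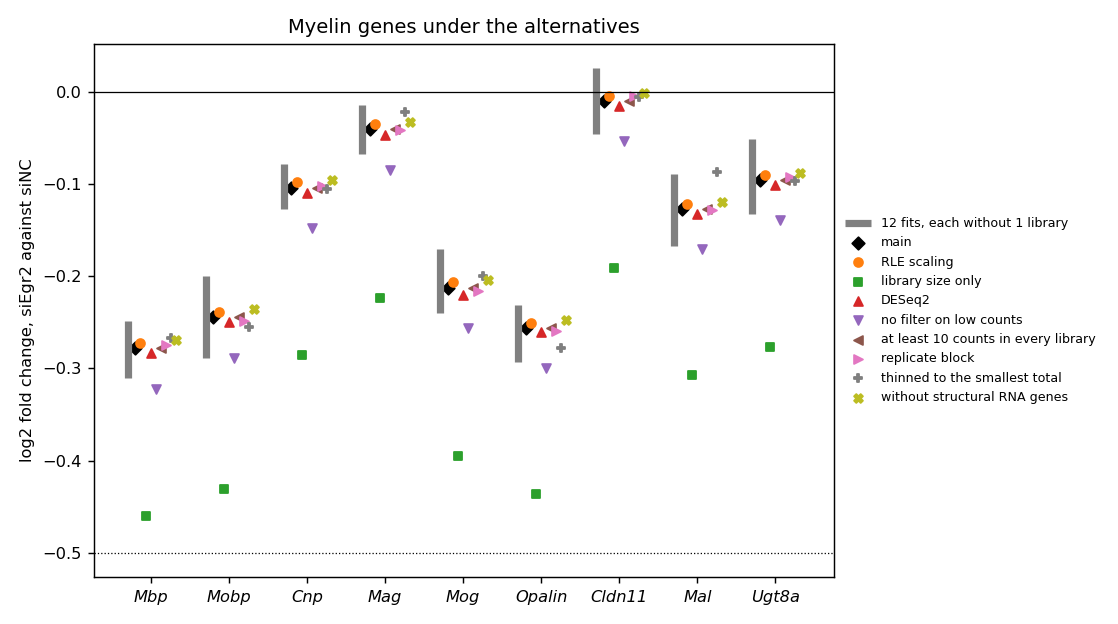
Log2 fold change of each of the 9 myelin genes under the main fit and 8 alternatives (symbols), with the range of 12 fits that each left out 1 library (gray bars). Scaling by library size alone gives the lowest value for every gene, down to -0.46 for Mbp, and no value reaches -0.5.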

How the data were processed

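RNA-seq was performed on 12 libraries of primary mouse OLs (6 siNC, 6 siEgr2). The authors made Illumina libraries from total RNA and deposited a table of unnormalized counts, listed by gene symbol. Per the labels the genome build was mm10. The aligner, the counting program and its treatment of strand are not given in the sources used here, so genes that overlap another gene are uncertain. One deposited entry without a name held no counts and was left out. Within groups, the chi-square per gene over 30 pairs of libraries was 7.56 to 39.8, so none was a copy of another.

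The counts were analyzed in R 4.3.3. After the filterByExpr filter and TMM scaling, groups were compared by the quasi-likelihood test of edgeR 4.0.16 (robust, no covariate), with Benjamini-Hochberg adjustment over 16600 genes. Calls required an adjusted p below 0.05 together with a log2 fold change beyond 0.5 in either direction, the thresholds of the study's methods. The SE was the log2 fold change divided by the square root of F. Exact permutation tests used log2 of CPM plus 0.5. Alternatives included DESeq2 1.42.0, other scalings and filters, thinning, a replicate block and leaving out each library. Intervals cover the spread between libraries only. The fit was tested on simulated data. Coordinates and lengths came from GENCODE M21 (GRCm38).

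The 9 genes, the other lists and the rule for named genes were chosen with earlier results of these data known. Named genes were the 9 genes, Egr2, Olig1, Olig2, Sox10, Pdgfra and Gfap, at most 3 called genes each way per list, the 2 most abundant genes of each marker list, and the 6 genes most like the 9. Other genes named from the lists were chosen after their values were seen. A few genes of the lists are not reported here and were left out of the list counts. A further list of 7 structural and ribosomal RNA genes had 7 called higher.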

Additional observations from a re-analysis of the deposited data

Results flagged for a closer look

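Groups of 6 libraries were examined for a single value far from the rest by Dixon's test, at a critical value of 0.625, in 54 groups, of which chance alone flags about 5%. The total count of siNC replicate 6, 39383014, stood above the other 5 siNC libraries, which held 28682946 to 32460116 (Dixon's ratio 0.647). None of the 9 myelin genes had such a library in either group.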

How the results depend on the processing

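Mbp and Opalin passed the adjusted p in all 20 alternatives, and 0 of the 9 myelin genes were called in any that kept both thresholds. Leaving out 1 library in turn gave 1114 to 1339 called genes (386 to 468 higher, 728 to 893 lower), of the 9 genes 0 called, 2 to 3 past the adjusted p, 8 to 9 below 0 and 2 to 3 without overlap, where 9.9% to 11% of all tested genes were lower at the adjusted p and 7.39% to 8.33% lower without overlap. Without siNC replicate 1, 2 or 5 or siEgr2 replicate 6, Cldn11 turned to 0.023, 0.0017, 0.026 and 0.00025 on the log2 scale, against a range of -0.045 to 0.026 over the 12 fits.

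Library size alone gave 1974 called genes, 237 higher and 1737 lower, against 1281, 437 and 844 with TMM, and 9 of the 9 genes past the adjusted p and 5 without overlap, where 32.6% and 18.8% of all tested genes were lower by the same measures. DESeq2 gave 869 genes higher and 4 of the 9 past the adjusted p (9.45% of all genes with one were lower), and no filter on low counts gave 5 (7.58% of all). Thinned libraries gave 259 genes higher. The genes without overlap were 1 (Mbp) with RLE scaling (6.83% of all tested genes lower without overlap), with thinning (5.23%) and without structural RNA genes (6.77%), and 3 with no filter (5.16%). The adjusted p alone gave 3300 called genes, 1423 higher and 1877 lower, with 2 of the 9, both lower (11.3% of all). The causes were not tested beyond the shift of the median under library size.

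Same-numbered libraries did not deviate together (r -0.039 to 0.042 over 6 pairs, 2 of 6 siEgr2 libraries nearest to their own number), so the numbers gave no sign of pairing. A shared culture or batch behind a number could still be hidden by noise in low counts. With a replicate block, 1124 genes were called, 0 of the 9 genes among them, and 2 of the 9 passed the adjusted p, where 9.99% of all tested genes were lower.

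Depth limits Mog, Mal and Opalin most, with as few as 220, 204 and 403 counts in a siEgr2 library. Depth and the ribosomal share differed between the groups without overlap, so their part in the differences cannot be told apart from that of the treatment.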
